A study of Homo sapiens with 60 samples.

Results

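The RNA collected near SMN2 was compared with the RNA collected near WRAP53 in Flp-In HEK293 cells, which derive from human embryonic kidney and take up a transgene at a fixed genomic site. The libraries were chosen by their labels, without reference to measured values: they are all the SMN2 and WRAP53 libraries of the gene count table of nuclear bodies, 8 of the 60 samples of the study. They fall into 4 groups of 2: SMN2 pulldown, SMN2 input, WRAP53 pulldown and WRAP53 input. In the SMN2 line the bait was SMN2 and in the WRAP53 line it was WRAP53, each fused to FLAG and to APEX2, an engineered peroxidase, and stably expressed. Every library came from cells that had biotin-phenol at 500 µM in the medium (30 minutes) before hydrogen peroxide at 1 mM started the labelling (1 minute). The peroxidase then turns biotin-phenol into a short-lived radical that tags nearby RNA, and the tagged RNA is captured on streptavidin as the pulldown. The input is total RNA of the labelled cells set aside before capture, and both fractions were depleted of ribosomal RNA. The labels do not say whether the replicates came from separate cultures or whether a line was 1 clone, and p-values therefore refer to the spread among these libraries, which may be technical.

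Cajal bodies are nuclear bodies built on coilin (gene COIL) in which small nuclear ribonucleoproteins mature. SMN is the core of a complex with the gemins that loads Sm proteins onto spliceosomal small nuclear RNAs (snRNAs), and it gathers in Cajal bodies or in neighbouring gems. WRAP53, also called TCAB1, binds the small Cajal body RNAs (scaRNAs) and the telomerase RNA and brings them to Cajal bodies. The question addressed is whether these partners of the same body collect different RNA.

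The main quantity is the enrichment difference: SMN2 pulldown minus SMN2 input, minus the same for WRAP53, on the log2 scale. Beside it stand the pulldown difference (SMN2 pulldown minus WRAP53 pulldown), the input difference (SMN2 input minus WRAP53 input) and each bait's own enrichment (pulldown minus input). Levels are CPM, counts scaled to a common TMM-adjusted library size. A gene passed when its Benjamini-Hochberg adjusted p from edgeR's quasi-likelihood test was under 0.05 over the 23681 genes tested.

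Total counts of the 8 libraries ran from 20488635 to 34660388. Some libraries stood apart. Genes under 1 CPM in all 28 inputs of the table took 0.656% of the counts of WRAP53 pulldown 1, against 0.254% in WRAP53 pulldown 2, 0.18% and 0.158% in the SMN2 pulldowns, and 0.134% to 0.398% in the other 24 pulldowns. Genes over 300 kb took 7.8% of the counts of SMN2 pulldown 1 and 5.06% of those of SMN2 pulldown 2, against 6.88% and 6.21% in the WRAP53 pulldowns. By their counts of the ribosomal protein pseudogene RPS14P8 the inputs of both baits lay in 1 set of libraries and the pulldowns of both in another, so within each bait this split and capture cannot be told apart. The fit drew its estimate of spread from all 56 libraries, of which FBL input 1 and NPAT input 1 departed most from their replicates. Without these 2 libraries 4425 genes passed for the pulldown difference, 1116 for the input difference, 6529 for SMN2 enrichment and 7142 for WRAP53 enrichment, and 0 for the enrichment difference. HEK293 markers were present, VIM at 557 to 803 CPM and NEFL at 108 to 148 CPM, except NEFM and TUBB3, whose highest values were 0.47 and 0.1 CPM. Of the markers of other cell types, COL1A1 (6.23 to 11.8 CPM) and HAND2 (2.59 to 5.33 CPM) were detected and the highest value of any other was 0.95 CPM.

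**Figure D1:**
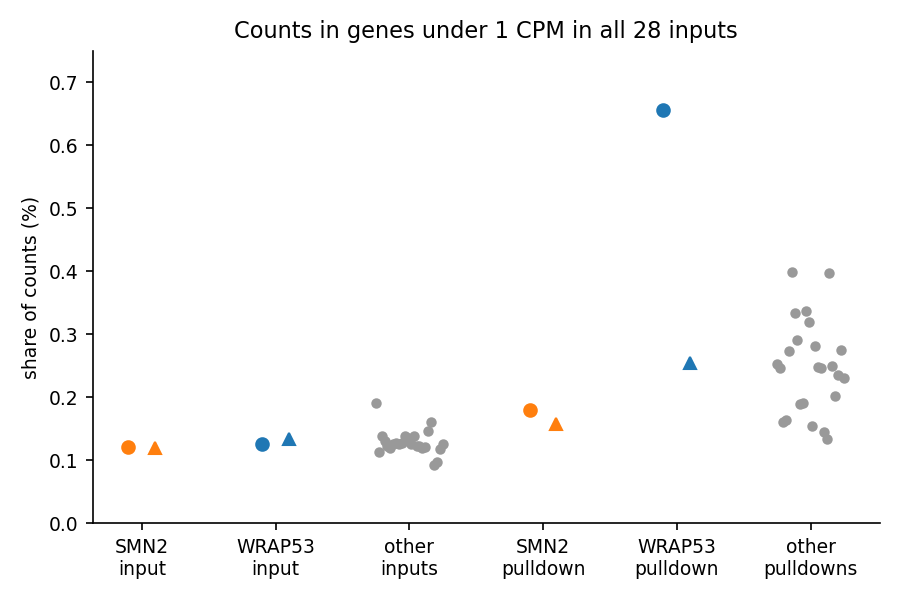
Percentage of each library's counts (vertical axis, from 0) in genes under 1 CPM in all 28 inputs, by group; circles are replicate 1 and triangles replicate 2 for SMN2 (orange) and WRAP53 (blue), grey points the libraries of the other baits. WRAP53 pulldown 1 lies at 0.656%, above all other pulldowns, which reach 0.398%.

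The transcripts of the bait genes were examined first, since each line carries an extra copy of its own. WRAP53 (chr17:7686071-7703502, GRCh38) was at 40.0 and 42.0 CPM in the SMN2 inputs and at 1227 and 1247 CPM in the WRAP53 inputs. The other 24 inputs of the table held 30.4 to 73.9 CPM. Its pulldown levels were 25.7 and 28.4 CPM in the SMN2 line and 1067 and 1150 CPM in the WRAP53 line. The 2 lines did not overlap, and the input difference was -4.91 (SE 0.19, edgeR adjusted p = 2.7e-21). After capture the difference was -5.36 (SE 0.19, edgeR adjusted p = 2.61e-22).

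SMN2 (chr5:70049523-70090528) was at 20.5 and 24.2 CPM in the SMN2 inputs and at 7.40 and 8.47 CPM in the WRAP53 inputs. The median of the other 24 inputs was 7 CPM, and the highest of them, 28.7 CPM, was the library labelled FBL input 1. In the pulldowns SMN2 stood at 18.1 and 18.3 CPM in its own line and at 6.68 and 8.21 CPM in the WRAP53 line. The input difference of 1.49 (SE 0.26, edgeR adjusted p = 0.00047) and the pulldown difference of 1.29 (SE 0.26, edgeR adjusted p = 0.0017) both passed, although the latter missed without WRAP53 pulldown 1 (edgeR adjusted p = 0.093). SMN1 (chr5:70924941-70966375), a near-identical copy whose reads the counting may divide with SMN2, was at 9.11 and 9.14 CPM against 7.98 and 9.24 CPM in the inputs. SMN1 levels of the 2 lines overlapped, and the transcript of each bait gene was the higher of the 2 in the line labelled for it.

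Once each line's input was subtracted, no gene passed between SMN2 and WRAP53. The enrichment difference gave 0 of 23681 genes (0%) in edgeR's quasi-likelihood test, and 932 genes (3.94%) had an unadjusted p under 0.05. DESeq2 and limma-trend also called 0. Without SMN2 input 2 a single gene passed, SP100, at -6.62 (edgeR adjusted p = 0.0333). It is the bait gene of another line of the study, at 1717 CPM in the first input of that line, and it had 101 counts (3.9 CPM) in SMN2 input 1 against 0.15 CPM in SMN2 input 2 and 0.15 and 0.03 CPM in the WRAP53 inputs. SP100 also had 39 counts (1.33 CPM) in WRAP53 pulldown 1, and stood at 2.33 CPM in NPAT input 1 and 1.43 CPM in FBL input 1. With no filter on low counts 47 genes passed, 10 higher and 37 lower for SMN2, among them CDH12, which stood at 12.4 CPM in WRAP53 pulldown 1 and at 2 CPM in WRAP53 pulldown 2. The smallest adjusted p of the 47 was that of MT-RNR1, at -4.66 (edgeR adjusted p = 1.97e-25). The 10 higher genes included NPIPB5 at 1.68 (edgeR adjusted p = 6.49e-05) and NKAIN2 at 1.08 (edgeR adjusted p = 0.00204).

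The intervals show how large a difference these libraries could hide. Among the 12038 genes with a mean of 5 CPM or more over the 8 libraries, the 95% interval of the enrichment difference lay within 2-fold in either direction for 11330 (94.1%), and the median size of the difference was 0.12. The interval typically reached 0.46 to either side of the estimate. Over all 23681 genes the interval lay within 2-fold for 52.4%, so for many of the genes with few counts a difference of 2-fold was not detectable at this depth. These intervals are per gene and were not widened for the number of genes.

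The parts of the SMN complex itself were captured without a detectable difference. SMN with the gemins forms the assembly machine for spliceosomal particles, and 9 of the 10 listed members were tested. Gemin genes are illustrated by GEMIN5, whose product recognises snRNA: 117 and 119 CPM in the SMN2 inputs, 131 and 149 CPM in the SMN2 pulldowns, 106 and 98.7 CPM in the WRAP53 inputs and 112 and 121 CPM in the WRAP53 pulldowns. Its enrichment was 0.25 (SE 0.12) for SMN2 and 0.19 (SE 0.12) for WRAP53, and the difference of 0.06 had a 95% interval from -0.29 to 0.40. Across the 9 members the enrichment difference ran from -0.20 to 0.22, and all 9 intervals lay between -0.94 and 0.58. Their messenger RNA does not stand for the protein, and no member passed for either bait's enrichment.

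Genes of Cajal bodies and of snRNP biogenesis were as close. COIL, which encodes the scaffold of the body, was at 59.0 and 62.3 CPM in the SMN2 inputs, 66.8 and 76.5 CPM in the SMN2 pulldowns, 49.8 and 47.7 CPM in the WRAP53 inputs and 57.1 and 55.9 CPM in the WRAP53 pulldowns. Its enrichment difference was 0.03 (95% interval -0.32 to 0.38). Of the 40 members, 39 had intervals within 2-fold, and the median difference was 0.07 against -0.034 over all genes. INTS2, a subunit of the Integrator complex that processes snRNA ends, rose for both baits, by 0.63 for SMN2 (SE 0.10, edgeR adjusted p = 3.38e-05) and by 0.32 for WRAP53 (SE 0.10, edgeR adjusted p = 0.0206), where it missed without WRAP53 input 1 (edgeR adjusted p = 0.0768), WRAP53 input 2 (0.151), WRAP53 pulldown 1 (0.0564), WRAP53 pulldown 2 (0.363) or either SMN2 pulldown (0.0556). Another Integrator subunit, the endonuclease INTS11, fell by 0.71 (SE 0.12, edgeR adjusted p = 0.000119) and by 0.60 (SE 0.12, edgeR adjusted p = 0.000800). In the pulldown difference SART3, a recycling factor of the U4/U6 particle, and TGS1, which trimethylates the snRNA cap, were higher in the SMN2 pulldowns, by 0.34 (edgeR adjusted p = 0.0254) and 0.29 (edgeR adjusted p = 0.0479), 2 of 40 members against 1.68% of all genes in that direction. Neither passed with total counts, without SMN2 pulldown 2 (edgeR adjusted p = 0.142 and 0.252) or without WRAP53 pulldown 1 (0.327 and 0.407), and TGS1 lay between 0.0522 and 0.0557 without any 1 of the 4 inputs. Of the 17 genes of telomerase and of the H/ACA particle, 15 had intervals within 2-fold, and so did 18 of 20 Sm and LSm protein genes and 9 of 9 genes of the box C/D particle.

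The genes with the smallest p-values are given as a description, since none passed. Several were noncoding genes of low level that lay lower for SMN2. ZFHX4-AS1, an antisense gene, was at 1 and 1.22 CPM and then 0.76 and 0.41 CPM for SMN2, and at 0.76 and 0.7 CPM and then 2.83 and 1.34 CPM for WRAP53. Its difference was -2.37 (SE 0.56, unadjusted p = 0.000128, edgeR adjusted p = 0.958). STXBP5-AS1 stood at -2.04, LINC02458 at -2.38 and BOK-AS1 at -3.26. These 4 genes had their highest value in WRAP53 pulldown 1, the library with the largest share of counts in silent genes, and its part in them was not tested. The genes that follow had a mean of 5 CPM or more. In favour of SMN2, IFT172, a part of the intraflagellar transport machinery, had the smallest p among those with no overlap of the 2 baits: 50.6 and 50.4 CPM before and 58.9 and 60.7 CPM after capture near SMN2, 44.0 and 44.5 CPM before and 37.6 and 37.9 CPM after capture near WRAP53. The difference was 0.47 (SE 0.14, unadjusted p = 0.0014, edgeR adjusted p = 0.958). KDM5B, a histone demethylase, followed at 0.46 and VPS39, a part of the endosomal tethering complex, at 0.36. On the WRAP53 side SLC2A6, a sugar transporter gene, was at -0.59, KDM4D, another histone demethylase, at -0.69 and HOXD8, a developmental transcription factor gene, at -0.67. These 6 differences are under 2-fold. RBFOX1, a neuronal splicing factor gene, was at -2.38, with 26.5 CPM in WRAP53 pulldown 1 and 5.67 CPM in WRAP53 pulldown 2.

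**Figure D2:**
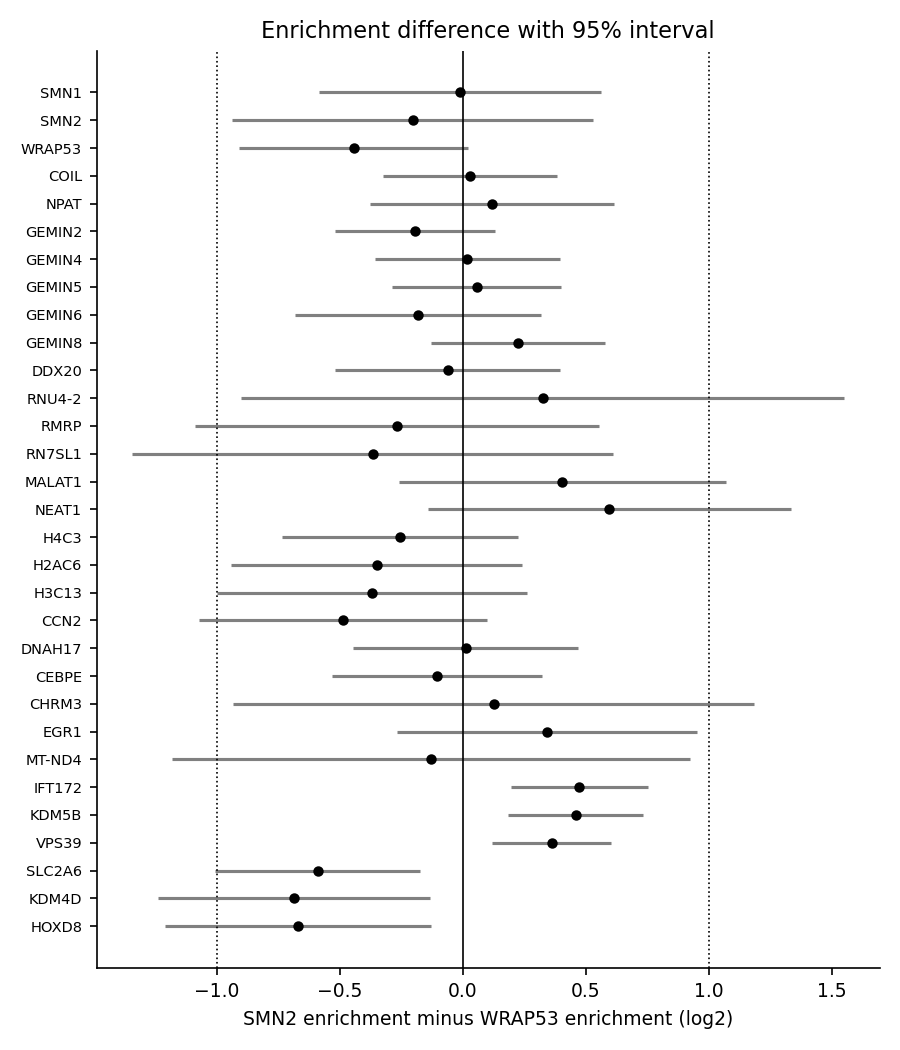
SMN2 enrichment minus WRAP53 enrichment on the log2 scale (horizontal axis) for genes named in the text or belonging to its lists; points are fitted differences, bars 95% intervals per gene, dotted lines 2-fold. Most bars cross 0; the last 6 genes were listed because their unadjusted p was small, and none passed after adjustment.

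For each bait many genes differed between pulldown and input. For SMN2 1101 genes were higher in the pulldown (4.65%) and 2475 lower (10.5%); for WRAP53 2525 were higher (10.7%) and 2191 lower (9.25%). These 2 comparisons share no library. Of the genes that passed in both, 378 were higher and 1736 lower for both baits and 0 went in opposite directions, which is 59.1% of the SMN2 calls and 44.8% of the WRAP53 calls. With DESeq2's size factors the split for SMN2 was 1725 higher and 1910 lower, and at a mean of 5 CPM or more 1740 and 1987. For WRAP53 it turned to 456 higher and 1419 lower at a mean of 5 CPM or more, and was 2360 and 2803 with TMM computed without mitochondrial and small RNA genes. The totals rest on few libraries: 1126 genes passed for SMN2 without SMN2 input 2, 1578 without SMN2 pulldown 1 and 2253 without SMN2 input 1, and for WRAP53 1033 passed without WRAP53 pulldown 1, 1698 without WRAP53 input 2 and 2139 without WRAP53 input 1.

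**Figure D3:**
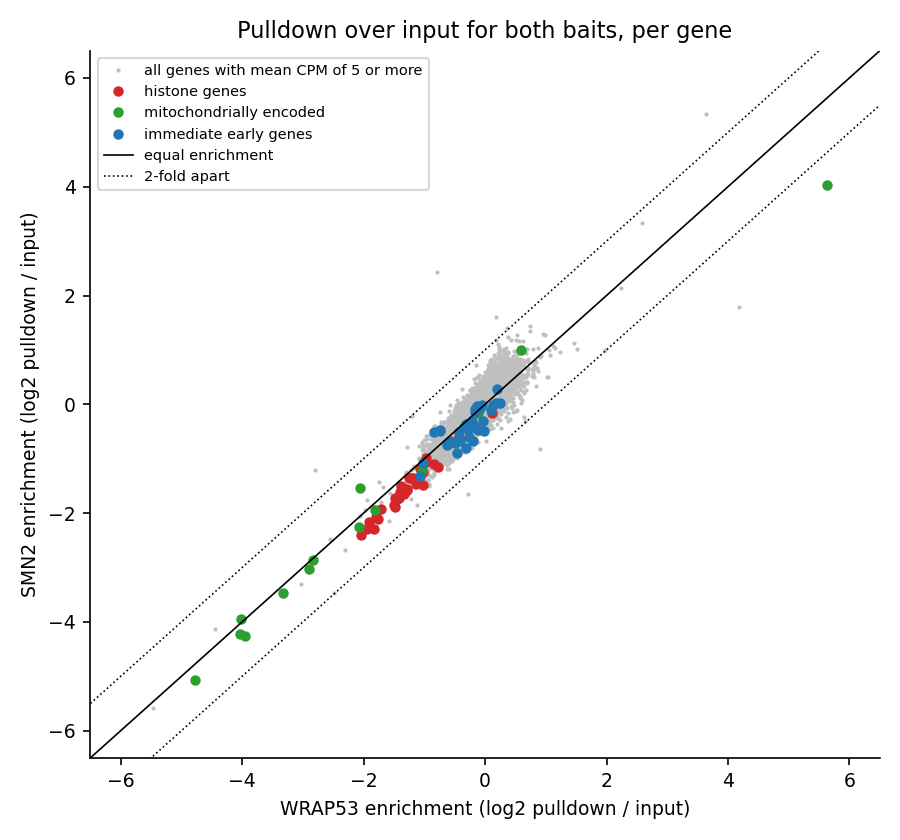
Enrichment over input for WRAP53 (horizontal) and SMN2 (vertical), log2, for genes with a mean of 5 CPM or more; 3 genes lie outside the axes. Points follow the line of equality, with histone genes (red) and most mitochondrially encoded genes (green) low for both baits and immediate early genes (blue) near or below 0.

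Replication-dependent histone genes, whose messages end in a stem-loop in place of a poly(A) tail and whose transcription takes place at histone locus bodies often found beside Cajal bodies, were lower in both pulldowns. Of 64 listed genes 50 were tested, and 37 fell for SMN2 and 34 for WRAP53 (21 without WRAP53 pulldown 1); 34 fell for both and 0 rose. Those that fell were 74% of the 50 for SMN2 and 68% for WRAP53, against 10.5% and 9.25% of all genes. The median enrichment over the 50 was -1.53 for SMN2 and -1.24 for WRAP53, against 0.012 and 0.040 over all genes. H4C3, which encodes histone H4, was at 265 and 255 CPM in the SMN2 inputs and 53.1 and 63.3 CPM in the SMN2 pulldowns, and at 219 and 217 CPM in the WRAP53 inputs and 56.7 and 59.6 CPM in the WRAP53 pulldowns. It fell by 2.16 (SE 0.17, edgeR adjusted p = 3.71e-11) and by 1.91 (SE 0.17, edgeR adjusted p = 9.98e-10). H3C13, a histone H3 gene, fell by 2.41 for SMN2 and by 2.04 for WRAP53, and H2AC6, a histone H2A gene, by 2.29 and by 1.94. In all 3 genes inputs and pulldowns did not overlap in either line. The fall of H4C3 was not particular to these baits, with enrichments from -3.58 to -1.72 across all 14 constructs. Histone genes are near copies of each other, so reads may be divided among them.

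None of the 50 histone genes passed for the enrichment difference, and their differences leaned to 1 side. This was not particular to them: 73 of 81 cytosolic ribosomal protein genes, 57 of 67 nuclear respiratory chain genes and 33 of 38 genes of endoplasmic reticulum proteins were also lower for SMN2, and the median of all 4092 genes under 10 kb was -0.10. Of the 34 histone genes with a mean of 5 CPM or more, all 34 were below 0, from -0.46 to -0.02, with a median of -0.27. In the inputs the median difference of the same genes lay between 0.18 and 0.26 over the settings run, and in the pulldowns between -0.10 and 0.16. Without SMN2 pulldown 1 the enrichment difference was below 0 in 26 of 34, with a median of -0.07, and without WRAP53 pulldown 2 in 27 of 34, with a median of -0.14. Under the other scalings at least 33 of 34 stayed below 0.

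The upstream sequences of 2 of these genes are shown as background, because many members share short promoter elements. The falls above compare captured RNA with input RNA and do not measure transcription. From RefSeq (GRCh38.p14), 45 of the 50 tested histone genes had a sequence of the 250 bases before the gene start. On either strand, CCAAT was in 38 of the 45 (84.4%) against 33% of 27305 promoters, and TATAAA in 31 (68.9%) against 11.1%. H2AC6 lies on the plus strand (chr6:26123922-26124171) and H3C13 on the minus strand (chr1:149813694-149813943); both are written 5′ to 3′ on the gene's strand, and capitals mark CCAAT, also where it reads ATTGG from the other strand, and TATAAA.
H2AC6: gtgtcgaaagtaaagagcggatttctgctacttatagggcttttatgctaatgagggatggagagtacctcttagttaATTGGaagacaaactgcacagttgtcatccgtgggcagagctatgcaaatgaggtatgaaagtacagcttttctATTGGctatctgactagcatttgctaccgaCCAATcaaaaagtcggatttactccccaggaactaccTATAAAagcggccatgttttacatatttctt
H3C13: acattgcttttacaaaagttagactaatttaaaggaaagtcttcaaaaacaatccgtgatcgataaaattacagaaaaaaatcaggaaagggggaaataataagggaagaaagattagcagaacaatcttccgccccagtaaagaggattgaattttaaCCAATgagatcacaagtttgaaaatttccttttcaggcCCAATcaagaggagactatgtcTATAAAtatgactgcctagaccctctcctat
TATAAA begins 31 bases before the start in both, and H2AC6 has 3 CCAAT matches and H3C13 has 2, none overlapping another match. A match is a description of the letters and not a measured binding site.

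Spliceosomal snRNAs, the RNAs that SMN loads with Sm proteins, gave no call above input for either bait. Of the 33 listed genes that were counted, 15 were at 0 in all 8 libraries and 17 were tested. Of these, 8 (47.1%) fell for SMN2, 11 (64.7%) for WRAP53, 7 for both, and 0 rose for either. Over all genes 10.5% were lower for SMN2 and 9.25% for WRAP53. The median was -1.35 for SMN2 and -1.75 for WRAP53. A median below 0 was not particular to these baits. As calculated for the comparison with other baits, it was -1.22 for SMN2 and -1.51 for WRAP53. By that calculation it was -1.6 for RNPS1, -1.24 for SAM68 and for FBL, -0.98 for SP100 and -0.86 for NPAT. The enrichment difference had a median of 0.52 with 13 of 17 above 0, none passed, and 0 of 17 intervals lay within 2-fold. RNU4-2, a gene of U4 snRNA, was at 26.1 and 29.9 CPM in the SMN2 inputs, 10.97 and 9.85 CPM in the SMN2 pulldowns, 37.1 and 28.9 CPM in the WRAP53 inputs and 10.6 and 9.09 CPM in the WRAP53 pulldowns. It fell by 1.42 (SE 0.43, edgeR adjusted p = 0.0230) and by 1.75 (SE 0.43, edgeR adjusted p = 0.00426), and its enrichment difference of 0.32 had an interval from -0.90 to 1.55. The SMN2 call missed without any 1 of the 4 SMN2 libraries (edgeR adjusted p = 0.0539 to 0.137) and the WRAP53 call without WRAP53 pulldown 1 (edgeR adjusted p = 0.0583). RNU4-1 fell by 1.75 (edgeR adjusted p = 0.0557 without SMN2 input 2) and by 1.95, and RNU5D-1, of U5 snRNA, by 2.59 and by 3.30. Across all constructs of the study the enrichment of RNU5D-1 ran from -3.44 to -1.15. Counts were low for most of this class, and the number that fell for SMN2 was 2 without SMN2 pulldown 1, 4 without SMN2 input 1, 5 without SMN2 input 2 and 5 without SMN2 pulldown 2; for WRAP53 it was 5 without WRAP53 pulldown 1 and 7 without either WRAP53 input. The snRNA genes are near copies of each other, so reads may be divided among them.

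The small RNAs that WRAP53 is known to bind were at or near 0. All 24 genes named SCARNA had 0 counts in all 56 libraries, and 23 of the 24 lie inside another gene of the reference. A count of 0 allows up to 3 counts, which is 0.0866 to 0.146 CPM in these 8 libraries and covers counting error only. TERC, the telomerase RNA, had 10 and 8 counts in the WRAP53 pulldowns, 12 and 7 in the WRAP53 inputs, 3 and 4 in the SMN2 pulldowns and 5 and 8 in the SMN2 inputs. Its enrichment difference of -1.09 had an interval from -3.22 to 1.04, so a difference of several fold was not detectable at this depth. RNU7-1, the U7 snRNA of histone end processing, had 0 counts in all 8. Of 148 H/ACA box small nucleolar RNA genes 138, and of 281 C/D box genes 273, were at 0 in all 56 libraries.

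Other small structured RNAs fell steeply for both baits. RMRP, the RNA of RNase MRP, was at 4216 and 5680 CPM in the SMN2 inputs and 497.5 and 509 CPM in the SMN2 pulldowns, and at 4068 and 4526 CPM and then 541 and 511 CPM for WRAP53. It fell by 3.30 (SE 0.31, edgeR adjusted p = 2.40e-09) and by 3.03 (SE 0.31, edgeR adjusted p = 2.05e-08). RN7SL1, the RNA of the signal recognition particle, fell as well, with enrichments of -2.68 and -2.31. Neither fall was particular to these baits. Across all 14 constructs enrichment ran from -3.99 to -1.73 for RMRP and from -3.19 to -2.01 for RN7SL1. SNORD13, the U13 small nucleolar RNA, was at 2.7 and 2.44 CPM and then 1.25 and 1.43 CPM for SMN2, and at 4.57 and 3.77 CPM and then 0.48 and 0.80 CPM for WRAP53. It fell by 2.68 for WRAP53 (SE 0.37, edgeR adjusted p = 6.52e-06), and its SMN2 value of -0.94 did not pass. The enrichment difference of 1.74 (95% interval 0.68 to 2.79, unadjusted p = 0.0020) did not pass after adjustment. SNORD3A, the U3 RNA, cannot be compared: it had 7395 and 15 counts in the SMN2 inputs, 3 and 2004 in the SMN2 pulldowns, 15 and 9013 in the WRAP53 inputs and 3 and 2571 in the WRAP53 pulldowns, so replicates disagreed in every group.

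Mitochondrially encoded transcripts, made outside the nucleus, were lower in both pulldowns. Of 24 tested, 13 (54.2%) fell for SMN2 and 12 (50%) for WRAP53 (12 for both), and 5 (20.8%) rose for each. Over all genes 10.5% fell and 4.65% rose for SMN2, and 9.25% fell and 10.7% rose for WRAP53. Across all 14 constructs MT-ATP8 had enrichments from -5.31 to -2.78 and MT-RNR1 from 1.92 to 7.36. MT-ND4, a subunit of respiratory complex I, was at 1422 and 1930 CPM and then 209 and 202 CPM for SMN2, and at 1962 and 2049 CPM and then 270 and 268 CPM for WRAP53. It fell for both, with enrichments of -3.03 (SE 0.40, edgeR adjusted p = 1.80e-06) and -2.90 (SE 0.39, edgeR adjusted p = 4.78e-06), with no overlap of pulldown and input. Of 81 cytosolic ribosomal protein genes 18 (22.2%) fell for SMN2 and 14 (17.3%) for WRAP53, against 10.5% and 9.25% of all genes. The medians over the 81 were -0.27 for SMN2 and -0.13 for WRAP53. These falls compare captured RNA with input RNA of the same line and do not measure the level of a transcript in the cells.

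Among the landmark long noncoding RNAs, MALAT1, NEAT1 and NORAD did not pass between the baits. MALAT1, a speckle RNA, was at 1359 and 1499 CPM and then 1447 and 1295 CPM for SMN2, and at 1503 and 1431 CPM and then 1010 and 1117 CPM for WRAP53. Its enrichment difference was 0.40 (95% interval -0.26 to 1.07). NEAT1, the RNA of paraspeckles, was at 340 and 471 CPM and then 456 and 281 CPM for SMN2, where the fractions overlap, and at 633 and 636 CPM and then 373 and 390 CPM for WRAP53, where they do not. NEAT1 fell by 0.73 for WRAP53 (SE 0.26, edgeR adjusted p = 0.0394), a call lost with total counts, with DESeq2's size factors and without any 1 of the 4 WRAP53 libraries (edgeR adjusted p = 0.0756 to 0.222), and the difference between baits, 0.60, had an interval from -0.14 to 1.33. NORAD, a cytoplasmic noncoding RNA that binds Pumilio proteins, rose for both, by 0.40 (edgeR adjusted p = 0.0280) and by 0.42 (edgeR adjusted p = 0.0172). The SMN2 call missed without SMN2 input 1, SMN2 input 2 or SMN2 pulldown 2 (edgeR adjusted p = 0.124 to 0.186), and the WRAP53 call without any 1 of the 4 WRAP53 libraries (edgeR adjusted p = 0.0522 to 0.27).

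Gene length went with enrichment for both baits. Among the 831 tested genes with a span over 300 kb, 147 (17.7%) were higher for SMN2 and 267 (32.1%) for WRAP53, with medians of 0.52 and 0.24. Over all genes 4.65% were higher for SMN2 and 10.7% for WRAP53. Among 4092 genes under 10 kb, 20% were lower for SMN2 and 16.6% for WRAP53, against 10.5% and 9.25% of all genes. These counts depend on single libraries. For SMN2 the number over 300 kb was 1 without SMN2 input 2, 10 without SMN2 pulldown 1, 65 without SMN2 input 1 and 271 without SMN2 pulldown 2; for WRAP53 it was 112 without WRAP53 pulldown 1. The part of the stated library differences in these counts was not tested. Genes low in the inputs may have passed the filter on low counts through a pulldown, which by itself makes them higher there. This was not tested either.

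Between the lines themselves, RNA levels did differ, and many of the differences seen in the inputs were seen again in the pulldowns. In bulk RNA fewer cells holding a transcript and less of it per cell cannot be told apart. In the inputs 105 genes (0.443%) were higher and 310 (1.31%) lower in the SMN2 line. In the pulldowns 397 (1.68%) were higher and 1316 (5.56%) lower. These comparisons also share no library. Both were passed by 290 genes, 53 higher and 237 lower in the SMN2 line and 0 in opposite directions, which is 69.9% of the input calls and 16.9% of the pulldown calls. The 290 had a median enrichment difference of -0.034, as had all genes, but choosing genes that passed both draws this value toward 0. Without that choice, 98.3% of the 415 input calls had the same sign in the pulldowns, against 67.3% of all genes. The split between directions depended on the setting. In the pulldowns it was 149 higher and 1827 lower with total counts, 847 and 1346 with DESeq2, 1042 and 1264 with the 8 libraries alone, 266 and 396 at a mean of 5 CPM or more, and 2245 and 2180 without FBL input 1 and NPAT input 1. In the inputs it was 74 and 423 with total counts, 64 and 357 at a mean of 5 CPM or more and 274 and 391 with the 8 alone. The input count was 148, 117, 139 and 117 without SMN2 input 1, SMN2 input 2, WRAP53 input 1 and WRAP53 input 2.

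**Figure D4:**
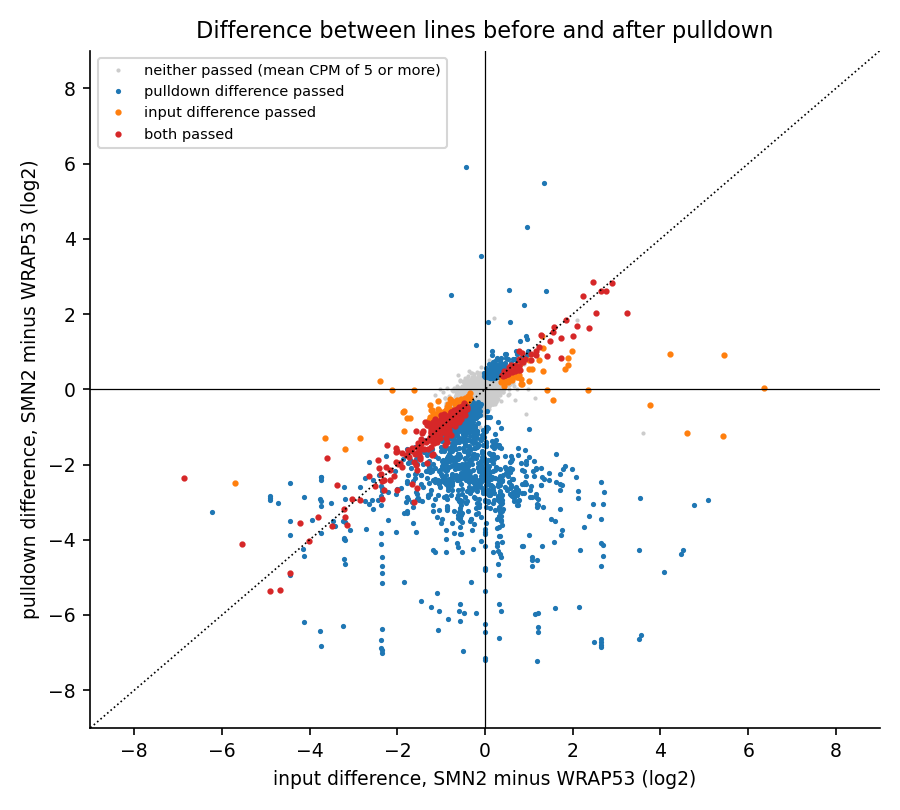
Input difference (horizontal) and pulldown difference (vertical), SMN2 minus WRAP53, log2; red genes passed in both, blue in the pulldowns alone, orange in the inputs alone, and the dotted line marks equality. The 290 red genes have the same sign on both axes, and many blue genes are low in the pulldown difference across a wide range of input differences.

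CCN2, which encodes a secreted matrix protein, had the highest input difference among genes that passed at a mean of 5 CPM or more without overlap of the lines. It was at 46.5 and 66.9 CPM in the SMN2 inputs and 9.04 and 10.7 CPM in the WRAP53 inputs, then at 31.3 and 34.0 CPM and 8.28 and 7.64 CPM in the pulldowns. The input difference was 2.52 (SE 0.21, edgeR adjusted p = 1.83e-10) and the pulldown difference 2.04 (SE 0.21, edgeR adjusted p = 1.72e-08). DNAH17, an axonemal dynein gene (chr17:78423697-78577396), was at 31.7 and 34.6 CPM against 8.53 and 10.0 CPM in the inputs and at 25.6 and 25.7 CPM against 7.09 and 7.18 CPM in the pulldowns. The lines did not overlap for either gene. The other 24 inputs held 4.74 to 103 CPM of CCN2 and 6.47 to 83.9 CPM of DNAH17, so both lines lie within the range of the study. After SMN2 itself, MIR222HG, ANXA1 and EMILIN2 were the next in the inputs, at 1.28, 1.15 and 1.06; without any 1 of the 4 inputs, MIR222HG and ANXA1 no longer passed.

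On the WRAP53 side CEBPE, a myeloid transcription factor gene (chr14:23117306-23119255), was at 32.3 and 35.3 CPM in the SMN2 inputs and 238 and 248 CPM in the WRAP53 inputs. The pulldowns held 21.1 and 18.9 CPM against 153 and 158 CPM. The differences were -2.85 (SE 0.16, edgeR adjusted p = 5.37e-16) and -2.96 (SE 0.16, edgeR adjusted p = 2.07e-16). The SMN2 inputs lie below the other 24 inputs (83.2 to 419 CPM) and the WRAP53 inputs within them. HDX, a homeobox gene of the X chromosome, went the other way: its SMN2 inputs, at 0.23 and 0.30 CPM, lie within the other inputs (0.06 to 3.07 CPM), and its WRAP53 inputs, at 12.6 and 12.4 CPM, above them. Its WRAP53 pulldowns were at 13.2 and 15.1 CPM and its SMN2 pulldowns at 0.64 and 1.02 CPM. CHRM3, a muscarinic receptor gene, was also above the other inputs (0.58 to 5.05 CPM) in the WRAP53 line, at 7.73 and 8.38 CPM, with an input difference of -3.04 and a pulldown difference of -2.92. EYS, at -5.70 in the inputs, was at 36.3 CPM in WRAP53 input 1 and 0.58 CPM in WRAP53 input 2. It did not pass without WRAP53 input 1 (-0.72, edgeR adjusted p = 0.94), SMN2 input 1 (edgeR adjusted p = 0.092) or SMN2 input 2 (edgeR adjusted p = 0.134). None of the enrichment differences of CCN2 (-0.49), DNAH17 (0.01), CEBPE (-0.11), HDX (1.43) and CHRM3 (0.12) passed.

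**Figure D5:**
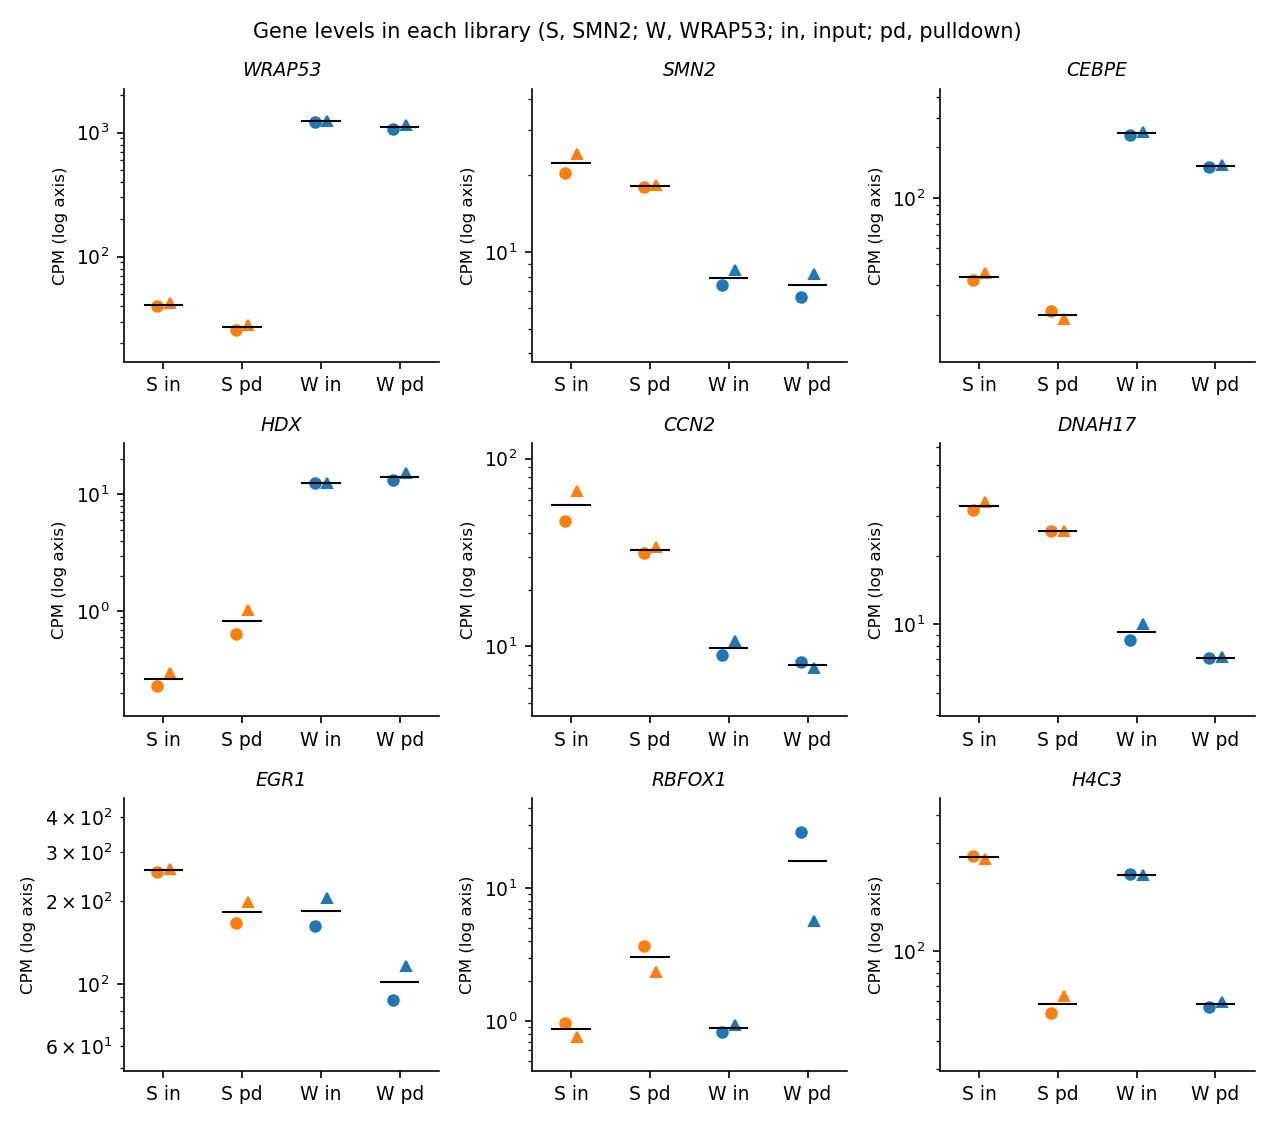
CPM on a log axis in each of the 8 libraries for 9 genes; circles are replicate 1, triangles replicate 2, black lines the mean of 2, SMN2 in orange and WRAP53 in blue. WRAP53, SMN2, CEBPE, HDX, CCN2 and DNAH17 separate the lines in input and pulldown alike, H4C3 separates the fractions, and RBFOX1 is highest in 1 WRAP53 pulldown.

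Immediate early genes, which respond within minutes to growth factors and stress, included several that were higher in the SMN2 line than in the WRAP53 line. Of 36 tested, 9 were higher and 0 lower in the inputs and 8 higher and 0 lower in the pulldowns, while the others did not pass, with medians of 0.31 and 0.21 against 0.017 and -0.035 over all genes. Higher calls made up 25% of the list in the inputs and 22.2% in the pulldowns, against 0.443% and 1.68% of all genes. JUN, DUSP1, DUSP6, KLF6, CCN2 and PPP1R15A passed in both. JUN, a subunit of the AP-1 factor, was at 338 and 344 CPM against 201 and 196 CPM in the inputs and at 316 and 375 CPM against 219 and 230 CPM in the pulldowns, with differences of 0.78 (SE 0.16, edgeR adjusted p = 0.00444) and 0.62 (SE 0.16, edgeR adjusted p = 0.0160). The other 24 inputs held 212 to 768 CPM of JUN, with a median of 335 CPM. For JUN the SMN2 inputs thus lay within the other inputs and the WRAP53 inputs below them. EGR1, a zinc finger factor, was at 166 and 197 CPM against 88.1 and 117 CPM in the pulldowns, a difference of 0.83 (SE 0.21, edgeR adjusted p = 0.0153), and at 254 and 261 CPM against 163 and 206 CPM in the inputs, where 0.48 did not pass. Both lines lay within the other 24 inputs for EGR1 (156 to 794 CPM). JUN missed in the inputs without SMN2 input 2 (edgeR adjusted p = 0.0673), WRAP53 input 1 (0.0705) or WRAP53 input 2 (0.0973), and JUN and EGR1 missed in the pulldowns without SMN2 pulldown 2 (0.194 and 0.185) or WRAP53 pulldown 1 (0.235 and 0.377). These counts were small once a library was left out: in the inputs 1 without WRAP53 input 1, 2 without SMN2 input 2 and 5 without either of the other inputs, and in the pulldowns 1 without SMN2 pulldown 2 and 1 without WRAP53 pulldown 1. With total counts 5 passed in the pulldowns. From input to pulldown, 38.9% of the list fell for SMN2 and 25% for WRAP53, against 10.5% and 9.25% of all genes. For the enrichment difference 0 of 36 passed, and 14 fell from input to pulldown for SMN2 and 9 for WRAP53 (7 without SMN2 input 2 or SMN2 pulldown 1, and 4 without WRAP53 input 2 or WRAP53 pulldown 1).

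The 250 bases before EGR1 (chr5:138465229-138465478, plus strand, RefSeq GRCh38.p14) are shown because serum response factor, a known driver of this class, binds the CArG box. Capitals mark CArG boxes, searched on both strands.
EGR1: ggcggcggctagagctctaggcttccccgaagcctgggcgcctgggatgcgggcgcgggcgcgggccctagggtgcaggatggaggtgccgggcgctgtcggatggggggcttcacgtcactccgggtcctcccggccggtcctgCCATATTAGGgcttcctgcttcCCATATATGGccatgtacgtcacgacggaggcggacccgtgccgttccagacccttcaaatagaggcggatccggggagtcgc
The boxes begin 105 and 83 bases before the start. A CArG box was in 2 of the 24 immediate early genes with a sequence (8.33%) and in 1.14% of all promoters; CCN2 had 0 in this window.

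The direction of the pulldown difference went with the level of the gene. Among the 7697 genes whose highest of the 4 inputs was under 1 CPM, 660 (8.57%) were lower in the SMN2 pulldowns and 9 higher. Among the 6197 genes with an input over 50 CPM, 70 (1.13%) were lower and 260 higher. Of the genes under 1 CPM, 64.2% had their highest pulldown value in WRAP53 pulldown 1, against 4.47% of those over 50 CPM. The filter on low counts kept a gene that reached its cutoff in enough libraries, whichever these were. Genes this low in the inputs may therefore have entered through the WRAP53 pulldowns, which by itself makes them lower for SMN2. How many did so was not tested. RBFOX1 was at 0.97 and 0.76 CPM in the SMN2 inputs and 0.83 and 0.93 CPM in the WRAP53 inputs, and at 3.70 and 2.33 CPM against 26.5 and 5.67 CPM in the pulldowns. Its pulldown difference of -2.40 (SE 0.56, edgeR adjusted p = 0.00684) did not pass without WRAP53 pulldown 1 (edgeR adjusted p = 0.678) or SMN2 pulldown 2 (edgeR adjusted p = 0.165). Of 934 tested long intergenic noncoding genes named LINC, 109 were lower in the SMN2 pulldowns (14 without WRAP53 pulldown 1, 19 without SMN2 pulldown 2, 58 without SMN2 pulldown 1 and 222 without WRAP53 pulldown 2). Over all genes, 206 passed without WRAP53 pulldown 1 and 223 without SMN2 pulldown 2, of which 203 and 211 were among the 1713 with the same sign. The LINC genes lower in the SMN2 pulldowns were 11.7% of those tested, against 5.56% of all genes. LINC00958 kept its difference in both fractions: 9.62 and 10.2 CPM against 29.0 and 28.9 CPM in the inputs and 9.01 and 10.3 CPM against 28.1 and 27.8 CPM in the pulldowns, at -1.55 (SE 0.15, edgeR adjusted p = 4.85e-09) and -1.53 (SE 0.15, edgeR adjusted p = 5.09e-09).

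Finally, the mean enrichment of the pair was compared with that of 5 baits whose inputs and pulldowns lie in the same sets of libraries: RNPS1, an exon junction and speckle protein, the RNA-binding protein SAM68, NPAT (histone locus bodies), the nucleolar protein FBL and SP100 (PML bodies). The pair was higher for 1690 genes (7.14%) and lower for 1387 (5.86%). Immediate early genes were higher for the pair, 16 of 36 with 0 lower. The median enrichment of that list was -0.46 for SMN2 and -0.23 for WRAP53, and -0.54 for SAM68, -0.58 for RNPS1, -0.73 for FBL, -0.83 for NPAT and -1 for SP100. JUN showed it: 0.01 for SMN2 and 0.18 for WRAP53, between -0.07 and -1.91 for the other 5, a difference of 1.03 (SE 0.14, edgeR adjusted p = 1.39e-05). MYCL, a MYC family gene, had the highest difference by the same filters, at 0.43 and 0.39 for the pair and -0.29 to -1.28 for the other 5 (difference 1.19, SE 0.16, edgeR adjusted p = 1.79e-05). Among the constructs left out of this comparison, FLAG stood at 0.03 for JUN and 0.3 for MYCL, and SRSF7 at 0.36 for JUN. The rest ran from -1.39 to -0.1 for JUN and from -1.3 to -0.23 for MYCL.

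Histone genes were less depleted near the pair than near the mean of the 5 others: 13 of 50 were higher and 0 lower. H1-4, a linker histone gene, had an enrichment of -1.63 and -1.36 for the pair against -1.95 to -3.01 for the 5 others (difference 0.88, SE 0.21, edgeR adjusted p = 0.00474). Of the constructs left out of this comparison, FLAG stood at -1.29 for H1-4 and the rest from -2.79 to -1.93. FBL and NPAT enrichments rest in part on FBL input 1 and NPAT input 1, which stood apart, and without these libraries 4011 genes passed for the whole comparison (2201 higher and 1810 lower). The baits overlapped in the list's median, which was -1.47 for SMN2, -1.22 for WRAP53, -1.01 for FBL and -2.47 for RNPS1. The count was 3 without SMN2 pulldown 2, 5 without WRAP53 input 1, 6 without SMN2 input 2 or WRAP53 pulldown 2, 7 without SMN2 input 1 and 8 without WRAP53 input 2. Genes with detained introns were lower for the pair, 12 of 27 with 0 higher. The list's median enrichment was 0.05 for SMN2, WRAP53 and NPAT alike, 0.06 for SAM68, 0.1 for FBL, 0.38 for SP100 and 1.24 for RNPS1, so the pair lay with 3 of the 5 and RNPS1 stood apart. CLK4, a kinase of splicing factors, fell by 0.66 relative to the 5 (SE 0.13, edgeR adjusted p = 0.000936); its enrichment was 0.11 and -0.10 for the pair, 0.15 for SAM68 and 1.46 for RNPS1. MALAT1 fell by 1.09 relative to the 5 (SE 0.20, edgeR adjusted p = 0.000357), of which RNPS1 stood at 2.45 and SP100 at -0.26. The pair's members did not pass against each other for any of these genes. The total was 1615 without SMN2 pulldown 2, 1736 without SMN2 input 1, 1885 without WRAP53 pulldown 2 and 1928 without WRAP53 input 1.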

How the data were processed

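The values were raw read counts per gene, whole numbers, as deposited by the authors, who name STAR 2.7.4a, featureCounts and the build hg38 in the submitters' processing notes; which annotation and strand setting the counting used is not given in the sources used here, so antisense and overlapping genes may share counts. Of 60591 rows, 1 held a cell without a number and was dropped. Of the genes tested 17803 were matched to the reference by symbol, 423 by an older symbol, and 5455 were not matched. In R 4.3.3, filterByExpr kept 23681 genes. edgeR 4.0.16 (TMM, glmQLFit robust, glmQLFTest, two-sided) was fitted to 56 libraries in 28 groups, with 28 residual and 9.64 prior degrees of freedom. Adjusted p-values are Benjamini-Hochberg over all genes tested, and CPM are without a prior count. Named genes were, per comparison, the highest and lowest log2 differences that passed at a mean of 5 CPM or more without overlap of the groups (12 each way for the enrichment difference, by smallest p where none passed), the bait and landmark genes, and up to 4 members of each list by p. For the enrichment difference, overlap was judged on pulldown minus input of the same replicate number. SP100, CDH12, RNU4-2, MT-ND4, JUN between the lines, NEAT1 and NORAD for single baits and the genes of the forest plot beyond the rule were chosen after their values were seen. Members and lists were chosen with earlier results of these data known. The test of the enrichment difference was also run on counts simulated from the fit's own means and spread. The filter on low counts was not run again there. That run cannot show a misfit of the model or an effect of the filter. Alternatives used DESeq2 1.42.0 and limma 3.58.1 (limma-trend). A second table of the study, of poly(A) and ribosome-depleted RNA, was not used here.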

Additional observations from a re-analysis of the deposited data

How the results depend on the processing

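For the enrichment difference 0 genes passed under 16 of 18 alternatives (932 at an unadjusted p under 0.05 in edgeR); 47 passed with no filter on low counts, and leaving out each library gave 0 to 1. With a mean of 5 CPM or more required, 662 genes passed for the pulldown difference and 1875 for WRAP53 enrichment. Without FBL input 1 and NPAT input 1 the counts were 4425 for the pulldown difference, 1116 for the input difference, 6529 for SMN2 enrichment and 7142 for WRAP53 enrichment. With the 8 libraries alone 665 passed for the input difference and 5789 for SMN2 enrichment, and DESeq2 gave 644 for the input difference; the shared comparison cannot be had from the 8 alone. The cause of these shifts was not tested. Leaving out each of the 8 libraries gave 206 to 2493 for the pulldown difference, 117 to 472 for the input difference, 1126 to 3554 for SMN2 enrichment, 1033 to 5097 for WRAP53 enrichment and 1615 to 3329 for the comparison with 5 other baits. Of 354 named gene results that passed, 202 passed under every alternative run for them, 152 missed in at least 1 and 0 reversed; COIL passed for the pulldown difference with DESeq2 (0.37, adjusted p = 0.0369). The alternatives for gene lists and for genes named beyond the rule were chosen after seeing the data.

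With the replicate number as a block, 0, 1605, 398, 3336, 4054 and 2863 genes passed for the enrichment, pulldown and input differences, SMN2 enrichment, WRAP53 enrichment and the comparison with 5 other baits. In the main fit the replicate number was not taken to pair the libraries. The correlation of deviations was 0.379 for SMN2 and 0.264 for WRAP53, and over 0.1 in 7 of 14 constructs. Same-numbered libraries were subtracted only to judge overlap of enrichments when genes were named. Of the 17 spliceosomal snRNA genes tested, 0 had an interval of the enrichment difference within 2-fold. Most small RNA genes at 0 lie inside another gene, and whether depth or the counting of overlapping genes left them at 0 was not tested.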
